A study of Mus musculus with 15 samples.

Results

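Across all samples, 10 neighboring genes of proximal mouse chromosome 9 were followed: Dync2h1, Dcun1d5, Mmp13, Mmp12, Mmp3, Mmp10, Mmp8, Tmem123, Birc2 and Birc3. They were chosen by their normalized counts in 1 LCNEC (large cell neuroendocrine carcinoma) allograft, tumor 312, in which they appeared to rise together, so their levels in that tumor are given as a description and were not tested. These 10 genes lie among 22 annotated genes between 6.9 and 7.9 Mb, and the expression matrix held 55359 genes in all. The data went against the choice for Mmp12 and Mmp8: only 8 of the 10 genes were at least 2-fold higher in tumor 312 than in both other tumors of its group.

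RNA was sequenced after poly-A selection in 15 samples, 3 from each of 5 groups. Lung was normal lung tissue of littermates of the graft recipients (CT3, CT4 and CT5). 46LCNEC_cell was the adherent line 46LCNEC at passage 17, in dishes A, B and C, derived from a lung tumor of a QKO mouse that had received Ad-CMVcre, an adenovirus that makes Cre under the CMV promoter. 57SCLC_cell was the line 57SCLC at passage 11, in flasks A, B and C, which grows in suspension and came from a tumor induced with Ad-K5cre, in which the keratin 5 promoter drives Cre. Cells of both lines had lost Rb1, Trp53 and a further floxed gene by recombination and carried the null Rbl1 gene of the QKO strain. 46LCNEC_allo (tumors 312, 319 and 321) and 57SCLC_allo (tumors 275, 316 and 317) were subcutaneous tumors grown from these cells in immunocompetent, syngeneic QKO mice. Ages were not given. Each tumor type was represented by 1 line, and dishes or flasks of a line are not separate tumors, so the p-values below measure only the spread between these samples, which in the cultured groups may be technical. Whether the tumors of a group came from different mice is not stated in the sources used here, and DNA copy number was not measured in the data analysed here.

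The deposited values are normalized counts, that is, read counts divided by a size factor for each sample. Between 9480244 and 44876572 reads were counted per sample, with a median of 26502525, and a value from 3 reads or fewer was taken as not detected. In the check of labels against marker genes, the lung epithelium list summed to between 367623 and 481403 normalized counts in Lung, against at most 2517 in any tumor. The neuroendocrine list was above 3 reads for all 8 genes in every 57SCLC sample. In the 46LCNEC line it rested on Ncam1 (between 28614 and 31510 normalized counts), and Chga, the classical granule marker, had at most 6.62. In tumors 312, 319 and 321 of 46LCNEC_allo, Ncam1 was lower, at 3058, 7384 and 4040. Chga had 18.5, 1.05 and 12.2 there. Flask C of 57SCLC_cell differed from flasks A and B far more (chi-square per degree of freedom of 144 and 127) than these from each other (2.80), and results are also given without it where they changed.

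The genes fall into groups by what their proteins do. Birc2 and Birc3 encode the inhibitor of apoptosis proteins cIAP1 and cIAP2, ubiquitin ligases that bind TRAF2 and restrain cell death at TNF receptors. The Mmp genes encode secreted matrix metalloproteinases: Mmp13 and Mmp8 are collagenases, the latter best known from neutrophils, Mmp3 and Mmp10 are stromelysins, and Mmp12 is the elastase of macrophages. In tumors these enzymes are made largely by stromal and inflammatory cells, and many of their promoters hold a site for the AP-1 transcription factor. Dync2h1 is the heavy chain of dynein-2, the motor that carries cargo back from the tip of the cilium. Dcun1d5 promotes the attachment of NEDD8 to cullins, and Tmem123 is a mucin-like protein of the cell surface.

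All coordinates are those of GRCm39. From low to high position on chromosome 9, Dync2h1 spans 6928503 to 7184497 on the minus strand and Dcun1d5 spans 7184509 to 7211322 on the plus strand, so that these 2 genes start head to head with 11 bases between them. Mmp13 (7272514 to 7283331), Mmp12 (7344381 to 7369499), Mmp3 (7445822 to 7455975), Mmp10 (7502353 to 7510241) and Mmp8 (7558457 to 7568487) follow on the plus strand. Tmem123 (7764042 to 7794348) is on the plus strand, and Birc2 (7818227 to 7837120) and Birc3 (7845790 to 7873229) are on the minus strand. The strand setting and the handling of reads with several alignments are not given in the sources used here. Counts of the paralogs Birc2 and Birc3 or Mmp3 and Mmp10, and of Mmp12, whose last part overlaps Mmp1b, are uncertain to that extent.

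Upstream sequence was matched in RefSeq (GRCm39) for 9 of the 10 genes, all but Dync2h1. For Mmp12 the start site used, that of the canonical transcript at 7347374, lies inside the annotated span of the gene, which begins at 7344381. The 100 bases before the start site are shown for the metalloproteinases, because these genes moved most between samples, with the AP-1 heptamer TGACTCA or its reverse complement TGAGTCA in capitals.
Mmp13 (chr9:7272414-7272513, plus strand): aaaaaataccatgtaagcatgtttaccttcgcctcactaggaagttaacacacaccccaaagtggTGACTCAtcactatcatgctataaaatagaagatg
Mmp12 (chr9:7347274-7347373, plus strand): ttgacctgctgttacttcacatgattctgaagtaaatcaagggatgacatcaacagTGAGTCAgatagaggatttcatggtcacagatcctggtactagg
Mmp3 (chr9:7445722-7445821, plus strand): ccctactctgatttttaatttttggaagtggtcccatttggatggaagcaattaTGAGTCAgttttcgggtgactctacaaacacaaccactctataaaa
Mmp10 (chr9:7502243-7502342, plus strand): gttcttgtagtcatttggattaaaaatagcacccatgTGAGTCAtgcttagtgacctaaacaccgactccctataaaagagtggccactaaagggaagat
Mmp8 (chr9:7558330-7558429, plus strand): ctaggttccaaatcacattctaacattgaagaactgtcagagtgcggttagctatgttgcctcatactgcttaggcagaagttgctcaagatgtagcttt
The heptamer began 35 bases before the start site in Mmp13, 44 in Mmp12, 46 in Mmp3 and 63 in Mmp10, and it was not in the 250 bases before Mmp8 or before the other matched genes. Of all 32851 promoters in the table, 4.46% held it within 250 bases and 1.88% within 100. Birc2 is shown for contrast, with CG pairs in capitals, because it was measured at a nearly even level outside tumor 312.
Birc2 (chr9:7837059-7837158, minus strand): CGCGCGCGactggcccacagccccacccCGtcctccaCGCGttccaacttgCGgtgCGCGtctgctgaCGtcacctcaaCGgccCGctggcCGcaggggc
Within 250 bases Birc2 had 31 CG pairs, Tmem123 15 and Dcun1d5 13, against a median of 6 over all promoters, 6 in Birc3 and between 1 and 4 in the metalloproteinases.

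In tumor 312, Birc2, Tmem123, Dcun1d5 and Dync2h1 stood far above every other sample. Birc2 had 10591 normalized counts in tumor 312, 1398 in tumor 319 and 1224 in tumor 321. It had 1007, 1104 and 1053 in 46LCNEC_cell, 1267, 1392 and 1401 in 57SCLC_cell, 1716, 1710.1 and 1637 in 57SCLC_allo, and 1803, 1782 and 1734 in Lung. Without tumor 312, the 14 samples thus kept within 1007 and 1803, and tumor 312 was 5.87-fold above the highest of them and 7.58-fold above the higher of the other tumors of its group (95% interval 7.15 to 8.04, from the reads, for counting error only).

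Tmem123 behaved alike at a higher level. It had 36894 normalized counts in tumor 312, 4472 and 3714 in tumors 319 and 321, 2633, 2930.2 and 2948 in 46LCNEC_cell, 3512, 3550.5 and 3269 in 57SCLC_cell, 5015, 5311 and 4673 in 57SCLC_allo, and 6209, 6960.4 and 6743 in Lung. Lung was the highest group once tumor 312 was set aside, and tumor 312 exceeded its highest sample 5.30-fold.

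Dcun1d5 and Dync2h1, which start 12 bases apart, were both highest in tumor 312. Dcun1d5 had 15866 normalized counts there, against 1476 and 1262 in tumors 319 and 321, 1036, 1122 and 1142 in 46LCNEC_cell, 756, 751 and 732 in 57SCLC_cell, 953, 786 and 912 in 57SCLC_allo, and 876, 919.5 and 801 in Lung. Dync2h1 had 7934, against 1155 and 739 in the other tumors of the group, 513, 622 and 591 in 46LCNEC_cell, 665, 616 and 864 in 57SCLC_cell, 926, 872 and 873 in 57SCLC_allo, and 601, 713 and 700.02 in Lung. For both genes the next highest sample was tumor 319, which tumor 312 exceeded 10.8-fold for Dcun1d5 (10.2 to 11.4) and 6.87-fold for Dync2h1 (6.44 to 7.33).

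Birc3, the cIAP2 gene, was also highest in tumor 312, but it varied much more than Birc2 elsewhere. It had 10975 normalized counts in tumor 312, 1415 and 1787 in tumors 319 and 321, 586, 651 and 619.7 in 46LCNEC_cell, and 2238, 1859 and 1869 in Lung. The SCLC samples were lowest, with 50.2, 68.8 and 100.04 in 57SCLC_cell and 484, 263 and 388 in 57SCLC_allo. Tumor 312 was 6.14-fold above tumor 321 and 4.90-fold above the highest Lung sample.

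**Figure D1:**
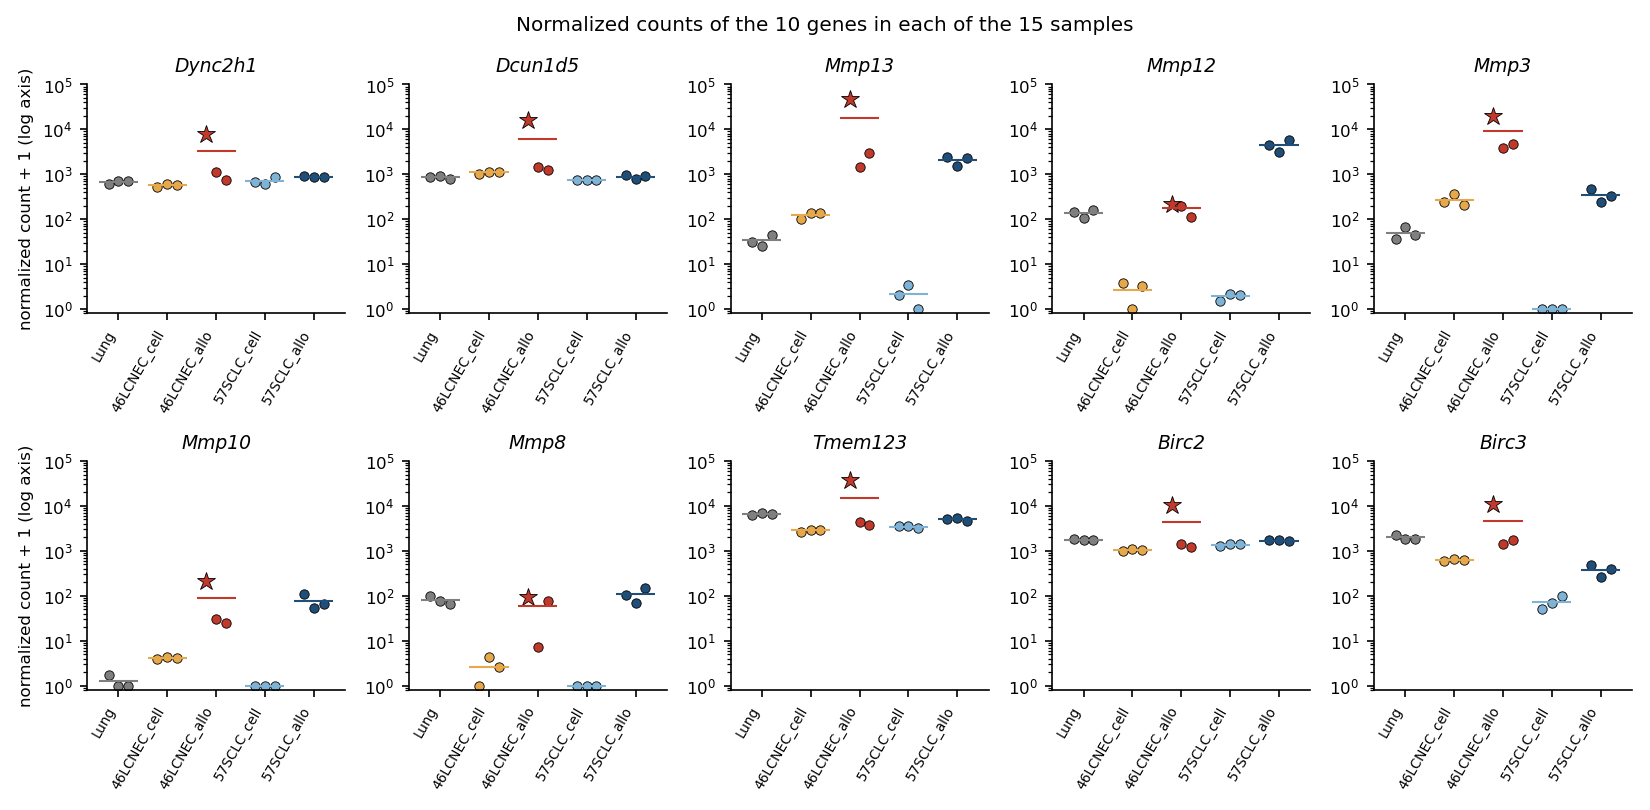
Normalized counts plus 1 (log axis) of the 10 genes, in chromosomal order, in each of the 15 samples by group, with tumor 312 as a star and the mean of each group as a line. Tumor 312 is the highest sample for 8 genes, while Mmp12 and Mmp8 are highest in 57SCLC_allo, where Mmp12 lies between 3069 and 5722.

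Among the metalloproteinases, Mmp13, the collagenase with the widest range, had 48612 normalized counts in tumor 312. Tumors 319 and 321 had 1442 and 3003, the 57SCLC_allo tumors 2437, 1542 and 2284, the 46LCNEC_cell dishes 100.4, 138 and 135, Lung 29.9, 24.9 and 43.3, and the 57SCLC_cell flasks 1.09, 2.41 and 0, from 2, 4 and 0 reads. Tumor 312 was 16.2-fold above tumor 321 (15.6 to 16.8), while tumors 319 and 321 lay on either side of the range of 57SCLC_allo.

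The stromelysin genes Mmp3 and Mmp10 followed at lower levels. Mmp3 had 19448 normalized counts in tumor 312, 3825 and 4703 in tumors 319 and 321, 481, 242 and 322 in 57SCLC_allo, 240.2, 359.8 and 203 in 46LCNEC_cell, 35.9, 64.8 and 43.3 in Lung, and 0 in all 3 flasks of 57SCLC_cell. All 46LCNEC_allo tumors were thus above all other samples, and tumor 312 was 4.14-fold above the next. Mmp10 had 211 in tumor 312, 29.5 and 23.2 in tumors 319 and 321, 108, 52.4 and 64.7 in 57SCLC_allo, 2.81, 3.31 and 3.08 in 46LCNEC_cell, 0.747, 0 and 0 in Lung, and 0 in 57SCLC_cell. Tumor 312 was 7.15-fold above tumor 319 (4.76 to 11.1), but only 1.95-fold above tumor 275 of 57SCLC_allo.

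The elastase Mmp12 and the neutrophil collagenase Mmp8 did not rise in tumor 312. Mmp12 had 215 normalized counts there, 196 and 111 in tumors 319 and 321, 141, 104 and 160.4 in Lung, 4426, 3069 and 5722 in 57SCLC_allo, 2.81, 0 and 2.31 in 46LCNEC_cell, and 0.545, 1.206 and 1.04 in 57SCLC_cell. Its ratio in tumor 312 to the next tumor of the group was 1.10 (0.88 to 1.36). Mmp8 had 94.0 in tumor 312, 6.32 and 74.1 in tumors 319 and 321, 103, 67.9 and 148 in 57SCLC_allo, 100.2, 75.8 and 64.4 in Lung, 0, 3.31 and 1.54 in 46LCNEC_cell, and 0 in 57SCLC_cell. Its ratio was 1.27 (0.90 to 1.80), and tumor 312 had rank 4 among the 15 samples for either gene, behind the 57SCLC_allo tumors for Mmp12 and behind Lung CT3 and tumors 275 and 317 for Mmp8.

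Set against all genes, 468 of the 16438 that reached 10 normalized counts in tumor 312 or in both other tumors were at least 2-fold above both of these (2.85%), and 8 of the 10 genes described here were, as the choice of the genes requires for most of them. The shares for tumors 319 and 321, taken the same way, were 2.83% and 9.01%. Over the 12642 genes that reached 50 normalized counts in every 46LCNEC_allo tumor, 6 of the 20 largest ratios were those of Mmp13, Dcun1d5, Tmem123, Birc2, Dync2h1 and Birc3, and Mmp3 ranked 26. Among these 20, 13 were on chromosome 9.

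Normalized counts per kilobase of annotated exon allow only a rough comparison between genes. The length takes in all annotated exons of a gene, 7237 bases for Mmp12 against 1722 to 2673 for the other metalloproteinases. The place of Mmp12 therefore depends on that length. In tumor 312 the order began with Mmp13 (18186), Mmp3 (10798), Tmem123 (6281), Dcun1d5 (1886) and Birc2 (1624). Birc3 (1264), Dync2h1 (473), Mmp10 (122), Mmp8 (38.8) and Mmp12 (29.6) came after these. In Lung the order began with Tmem123 (1130.0 ± 65.8, SD, n = 3), Birc2 (272 ± 5.45), Birc3 (229 ± 24.9), Dcun1d5 (103 ± 7.15) and Dync2h1 (40.0 ± 3.65). Mmp8 (33.0 ± 7.53), Mmp3 (26.7 ± 8.35), Mmp12 (18.7 ± 3.98) and Mmp13 (12.2 ± 3.56) came after these. Of these neighbors in the order, Dync2h1 and Mmp8, Mmp8 and Mmp3, and Mmp3 and Mmp12 differed by less than the larger of their SDs. Mmp10 was last in Lung, with 1 read in 1 sample.

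The level in tumor 312 was far above that of the cultured cells of the same line. Relative to the 46LCNEC_cell mean, tumor 312 was 10.04-fold higher for Birc2, 13.01-fold for Tmem123, 13.8-fold for Dync2h1 and 14.4-fold for Dcun1d5, whereas the mean of tumors 319 and 321 was 1.24, 1.44, 1.64 and 1.24-fold higher. Birc3 was 17.7-fold higher in tumor 312 and 2.59-fold in the other tumors. The metalloproteinases were already far above the cells in tumors 319 and 321, by 17.8-fold for Mmp13, 15.9-fold for Mmp3, 8.59-fold for Mmp10, at least 54.5-fold for Mmp12 and at least 14.3-fold for Mmp8. In tumor 312 these ratios were 390.3 for Mmp13, 72.7 for Mmp3, 68.7 for Mmp10, at least 76.3 for Mmp12 and at least 33.5 for Mmp8. Bounds were taken against 3 reads per library.

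**Figure D2:**
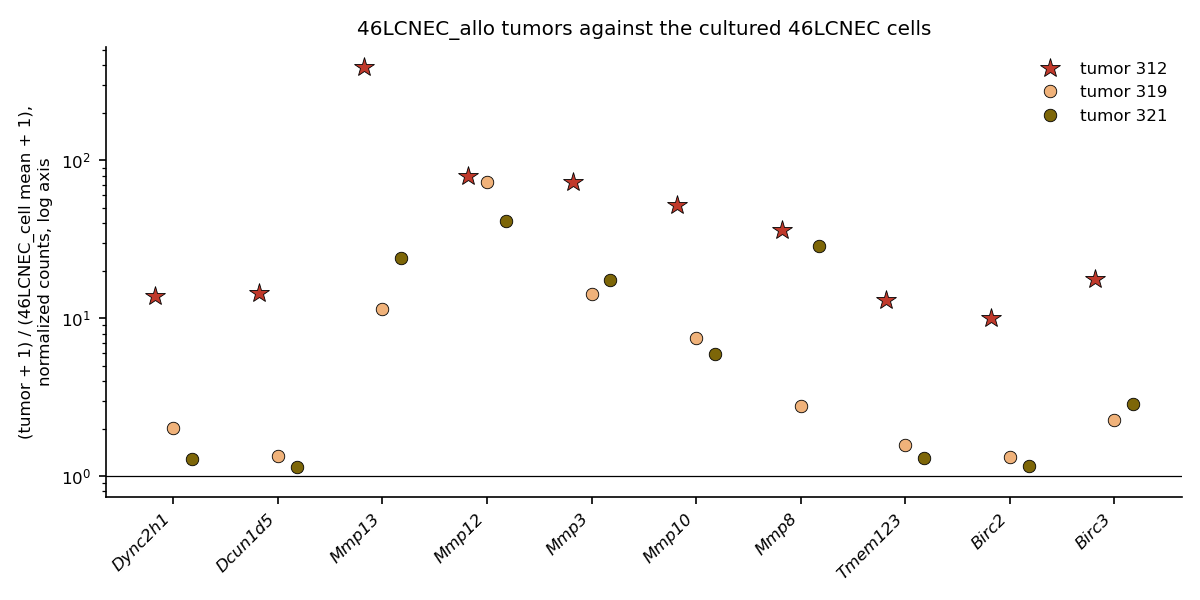
Ratio of each 46LCNEC_allo tumor to the mean of the 3 46LCNEC_cell dishes, with 1 added to both normalized counts (log axis), for the 10 genes in chromosomal order. Tumors 319 and 321 lie close to 1 for Dcun1d5, Tmem123 and Birc2, while tumor 312 lies near 10 or above for all 10 genes.

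Genes on both sides of these 10 were high in tumor 312 as well. Just below Dync2h1 lies Pdgfd, a growth factor of the PDGF family, with 168 normalized counts in tumor 312 against 31.6 and 79.7. Just above Birc3 lies Yap1, the coactivator of the Hippo pathway, with 64200 against 5426 and 4464, a ratio of 11.8. Beyond Yap1, the long non-coding RNA Gm45494 had 303 against 21.1 and 24.3, and Cfap300, which acts in the assembly of ciliary dynein arms, had 4110 against 169 and 242. On the other side of Pdgfd, the pseudogenes Gm48640 (94.0 against 94.7 and 47.6) and Gm6015 (11.9 against 3.16 and 4.43) were low in all 3 tumors.

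Within the interval itself, 12 other annotated genes were in the matrix, and only Mmp27 and Mmp1a of these passed the filter on low values with a ratio above 2. Mmp27 had 46.4 normalized counts in tumor 312 against 5.26 and 16.6. Mmp1a, a mouse interstitial collagenase gene, had 14.6 against 0 and 1.11, which is at least 4.39-fold. Mmp1b and the enamel protease Mmp20 had 7.95 each in tumor 312 and were at 0 in tumors 319 and 321, and the long non-coding RNA AV064505 had 6.62 against 0 and 0. The pseudogene Cbx3-ps8 had 5.30 against 7.37 and 3.32. Mmp7 (matrilysin), Gm47616, Gm19212, Gm10709 and Mir5618 were at 0 in all 46LCNEC_allo tumors, and Gm47741 had 1.32, 0 and 0.

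Along the chromosome, 32 of the 38 measured genes that start between 3 and 11 Mb were at least 2-fold higher in tumor 312. The first of them was Alkbh8, a transfer RNA methyltransferase that starts at 3335110, and the last was Cntn5, which ends at 10904780. The 38 include the 10 genes chosen for this tumor, of which 8 were at least 2-fold higher. Between 13 and 20 Mb none of 32 were, and no measured gene starts between 10 and 13 Mb. For protein-coding genes that reached 50 normalized counts in tumors 319 and 321, the median ratio was 3.10 between 3 and 5 Mb (6 genes), 7.80 between 5 and 6.9 Mb (3 genes), 7.224 between 6.9 and 7.9 Mb (8 genes), 14.4 between 7.9 and 10 Mb (4 genes) and 0.67 between 13 and 20 Mb (25 genes). The 3 genes between 5 and 6.9 Mb were the inflammatory caspases Casp1 (6375 against 202 and 576), Casp4 (3787 against 234 and 632) and Casp12 (9581 against 604 and 1229). The 8 between 6.9 and 7.9 Mb were all among the 10 chosen genes, so their median reflects that choice. The 4 between 7.9 and 10 Mb were Yap1, Cfap300, Cep126 and Arhgap42. Cep126, a centrosomal gene, had 2723 against 75.8 and 70.8, and Arhgap42, a GTPase-activating protein, had 21693 against 3082 and 1851. Cep126 had the largest ratio, 35.9, among the genes that reached 50 normalized counts in tumors 319 and 321. Gria4 and Pgr, at or under 3 reads in those tumors, had ratios of at least 33.1 and 32.7.

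In the plot of ratios along chromosome 9, the high genes form 1 broad block around Birc2, with Mmp12, Mmp8, Gucy1a2 and the pseudogenes Gm5362, Gm7390 and Gm48640 below the 2-fold line.

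**Figure D3:**
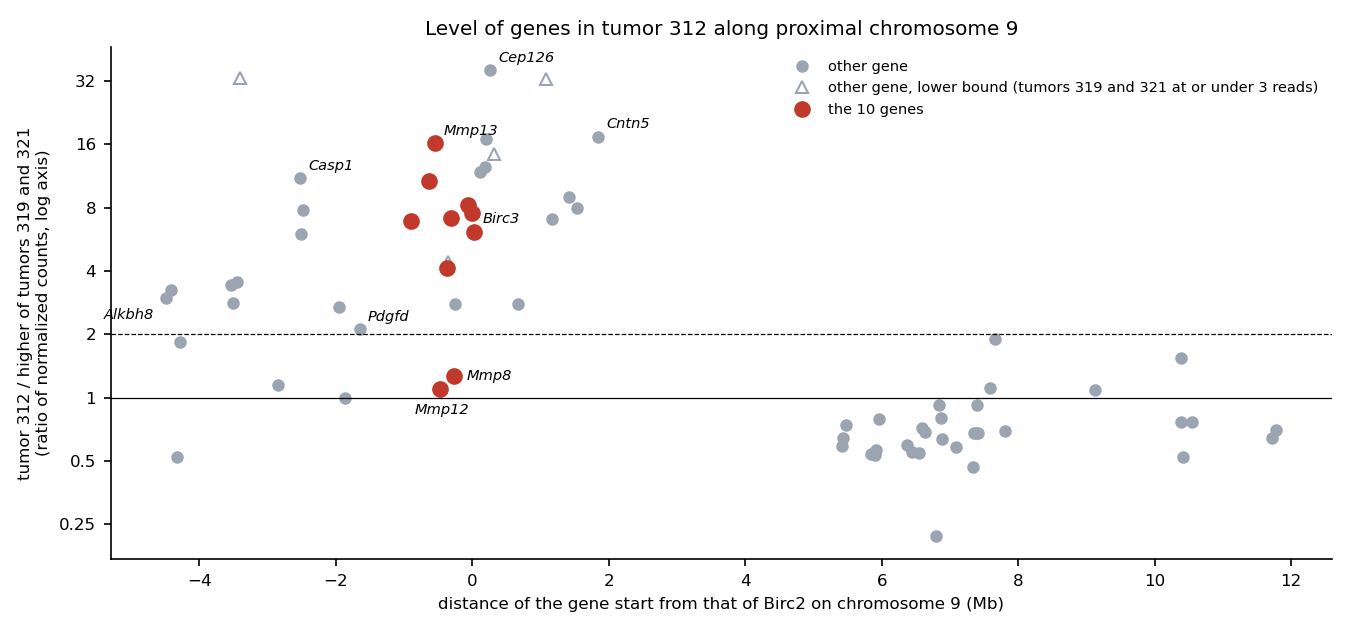
Ratio of normalized counts in tumor 312 to the higher of tumors 319 and 321 (log axis) for measured genes of proximal chromosome 9, by the distance of the gene start from that of Birc2 in Mb, with the 10 genes in red, lower bounds as open triangles, a solid line at 1 and a dashed line at 2. All genes in the right part, between 13 and 20 Mb on the chromosome, lie below 2.

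In runs of consecutive measured genes past the same 2-fold rule, over the whole genome, the longest held 15 genes, from Mmp27 to Cntn5, and took in Tmem123, Birc2 and Birc3 with a median ratio of 9.02. The next had 4 genes each: Pdgfd, Dync2h1, Dcun1d5 and Mmp13 (median 8.81); Casp1, Casp4, Casp12 and Gm6015 (6.895); Gm35853, Krt7, Krt88 and Krt8 on chromosome 15 (3.66); and Aasdhppt, Kbtbd3, Msantd4 and Gria4 (3.48). Taken the same way, the longest run in tumor 319 had 9 genes and that in tumor 321 had 40. Chromosome 9 had 48 of 915 measured genes past 2-fold (5.25%), of which 32 lay between 3 and 11 Mb, and the other chromosomes had between 0% and 4.64%.

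Tumor 312 also differed from tumors 319 and 321 in fat cell genes and keratin genes, and the part of these cells in its chromosome 9 levels was not tested. Of the muscle and fat list, 3 of the 4 measured genes were at least 2-fold higher in tumor 312: Adipoq (103 normalized counts against 0 and 0), Plin1 (88.7 against 0 and 1.11) and Fabp4 (2176 against 366 and 441). All 3 are fat genes. The muscle genes Ckm (2.65 against 12.6 and 1.11) and Mylpf (17.2 against 66.3 and 28.8) were not higher. Acta1 was at 0 in all 15 samples, Lung included, so it cannot inform on muscle here. The list summed to 2388, 445 and 472 in tumors 312, 319 and 321. Of the keratinocyte list, 2 of 3 were higher, Krt14 (1075 against 72.6 and 50.9) and Trp63 (523 against 73.7 and 87.4). Krt10, the other measured gene, was not (315 against 320 and 326), and Krt5, Krt1 and Ivl were at 0 in all 3 tumors. The list summed to 1914, 466 and 465. Krt14 was also measured in the cultured line, with 91.9, 87.2 and 135 in 46LCNEC_cell. Counts for the other lists were 0 of 9 for macrophages and monocytes, 0 of 5 for neutrophils, 1 of 9 for fibroblasts (Col1a2), 0 of 6 for endothelium, 0 of 2 for T cells, 1 of 3 for lung epithelium (Sftpb, 15.9 against 4.21 and 6.64) and 0 of 2 for neuroendocrine genes.

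The macrophage list, whose cells are a known source of Mmp12, summed to 60675 in tumor 312, 43471 in tumor 319 and 95058 in tumor 321, with 1 of its 10 genes at or under 3 reads in each. That gene, Itgam, was at 0 in all 15 samples, Lung included, so its absence from these tumors carries no information. The neutrophil list summed to 991, 582 and 2225 in the same order. The fibroblast list, of a cell type known to make Mmp3 and Mmp13, summed to 916233, 831239 and 450230. In the cultured 46LCNEC_cell, which holds no cells of a graft recipient, it summed to between 85009 and 96006. Whether the culture held other cells of the donor tumor was not tested. Of the fibroblast genes, Col1a1, Col1a2 and Pdgfrb were highest in tumor 312 of the 3 tumors, and Col3a1, Postn and Pdgfra lay between the other tumors. Dcn (4101 against 10947 and 13493), Lum (1899 against 3387 and 8259) and Fap (180 against 559 and 665) were lowest there. The sum is carried by collagens, and the cultured line itself had between 46908 and 54461 for Col1a2. In bulk tissue, fewer cells of a type and less RNA per cell cannot be told apart.

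Genes that act with these 10 proteins did not share the high level of tumor 312. None of the 21 measured cIAP and TNF receptor partners, the 12 AP-1, Runx and Ets factors, the 14 genes of dynein-2 and intraflagellar transport or the 17 neddylation genes were at least 2-fold above both other tumors, with median ratios of 0.89, 0.67, 0.88 and 0.90 against 0.90 over all genes. In the list of metalloproteinase inhibitors and regulators, 2 of 10 were, namely Mmp1a and Mmp27, which lie inside the interval.

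The genes whose pattern over the 15 samples was most like that of Birc2, by Pearson correlation of log2 normalized counts over 15077 genes, were Tmem123 (r = 0.98), Dync2h1 (0.94) and Aasdhppt (0.93), which starts at 4286456 on chromosome 9. For Tmem123 they were Birc2 (0.98), Dync2h1 (0.88) and Aasdhppt (0.86). For Mmp13 they were Cd248 (0.95), Lrrc15 (0.94) and Mmp3 (0.94), and for Mmp12 Cln8 (0.95), Adam8 (0.95) and Rian (0.94). Without tumor 312, a check added after seeing the data, Birc2 correlated at 0.93 with Tmem123, 0.46 with Dync2h1 and 0.10 with Aasdhppt, and these had ranks 42, 4538 and 7234, so the likeness of Birc2 to the last 2 rested on tumor 312. Cd248 and Lrrc15 for Mmp13, and Adam8 and Cln8 for Mmp12, had ranks 1 and 2 without it. The 6 pairs among Birc2, Tmem123, Dync2h1 and Dcun1d5 had r between 0.81 and 0.98 over 15 samples and between -0.43 and 0.93 without tumor 312. Samples of a group share their line or tissue, so these values describe 5 groups rather than 15 independent points.

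The remaining comparisons leave out 46LCNEC_allo and so do not use the values that chose the genes. A gene was called where the adjusted p did not exceed 0.01 (limma, Benjamini-Hochberg over all genes tested) and the change was 2-fold or more, and it was tested if 3 or more of the 6 samples reached 10 normalized counts. Fold changes are on the log2(normalized count + 1) scale, which understates those of low genes. A gene that passed the filter in 1 group alone had to differ, and such genes are named among the 10 and counted in the lists.

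The first comparison asked how the cultured LCNEC line differed from normal lung. In 46LCNEC_cell, Mmp13 and Mmp3 were higher than in Lung, and Birc3, Tmem123, Mmp12 and Mmp8 were lower. Of the 10 genes, 9 were tested, all but Mmp10, and 2 were called higher and 4 lower. Over all 18142 genes tested, 20.6% were called higher and 35.0% lower. Mmp13 rose 3.81-fold from a mean of 32.7 ± 9.51 to 125 ± 21.0 normalized counts (log2 fold change 1.92, standard error 0.26, adjusted p = 0.000101), and Mmp3 rose 5.58-fold (2.46, 0.28, adjusted p = 3.16e-05). Birc3 fell 3.21-fold (log2 fold change -1.68, standard error 0.09, adjusted p = 2.28e-07) and Tmem123 fell 2.34-fold (-1.23, 0.08, adjusted p = 4.65e-07). Mmp12 was at least 48.1-fold lower and Mmp8 at least 28.5-fold lower, and both passed the filter in Lung alone.

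The other 3 tested genes changed by less than 2-fold in the line. Birc2 was 1.68-fold lower in 46LCNEC_cell, with no overlap between the groups (log2 fold change -0.75, standard error 0.07, adjusted p = 7.49e-06, under the fold threshold). Dcun1d5 was 1.27-fold higher (0.35, 0.09, adjusted p = 0.00418). Dync2h1 had overlapping ranges (-0.22, 0.11, adjusted p = 0.0899). With all 15 samples in 1 model, only Mmp12, Mmp3 and Mmp8 were called, with adjusted p = 0.0125 for Birc3, 0.0662 for Mmp13 and 0.0656 for Tmem123.

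Among the partner lists, the apoptosis and TNF receptor genes went both ways, with 3 of 21 higher and 4 lower in 46LCNEC_cell. Birc5 (survivin) rose from 89.3 to 2603 normalized counts and Tnf, the ligand of the receptors that cIAPs act on, fell from 435 to 0.57, having passed the filter in Lung alone, as did Mmp27 of the next list. Of 9 inhibitors and regulators of metalloproteinases, 4 were higher and 4 lower, among them Mmp14, a membrane-bound activator of other metalloproteinases (2054 to 14612), and Reck, an inhibitor (2373 to 234). Of 12 AP-1, Runx and Ets factors, 4 were higher and 6 lower: Etv4 rose from 23.1 to 4038 and Fosl1 from 24.5 to 1768, while Fos fell from 15549 to 193. In the dynein-2 list 2 of 14 were lower and none higher, and in neddylation 2 of 17 were higher and 3 lower. Median log2 fold changes were 0.26, 0.01, -0.57, -0.42 and 0.06 for the 5 lists in this order, against -0.23 over all genes.

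The second comparison set the cultured SCLC line against lung. In 57SCLC_cell, Birc3 and 4 of the metalloproteinases were lower than in Lung, and Mmp3, Mmp10 and Mmp8 had no read in any flask. Of 9 genes tested, 5 were called lower and none higher, against 32.7% and 21.1% of all 18467 genes. Birc3 fell 27.2-fold, from 1989 ± 216 to 73.0 ± 25.2 normalized counts (log2 fold change -4.80, standard error 0.24, adjusted p = 6.67e-07). The other 4, Mmp13, Mmp12, Mmp3 and Mmp8, passed the filter in Lung alone, and the last 3 were at least 80.9, 28.8 and 48.0-fold lower. The flasks held 6 Mmp13 reads in all, and the ratio of Lung to the flasks was 28.8 (exact 95% counting interval 12.8 to 80.3). Mmp10 was at or under the floor in both groups.

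Tmem123 was 1.93-fold lower in 57SCLC_cell (log2 fold change -0.95, standard error 0.08, adjusted p = 1.06e-05) and Birc2 1.31-fold lower (-0.39, 0.07, adjusted p = 0.00142), with groups that did not overlap but under the fold threshold. Dcun1d5 was 1.16-fold lower (-0.21, 0.08, adjusted p = 0.0472). Dync2h1 had overlapping ranges (0.08, 0.14, adjusted p = 0.626), and its difference was -0.06 without flask C. The 5 calls were the same without that flask.

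Most partner genes that changed in the SCLC line fell. Of the cIAP and TNF receptor partners 1 of 21 was higher, Birc5 (89.3 to 2366 normalized counts), and 12 were lower, among them Traf1 (2057 to 2.59) and the NF-kB subunit Rel (972 to 8.22). The 9 tested metalloproteinase inhibitors and regulators were called lower, but 3 of them, Mmp14 (3.55 in the flasks), Mmp9 (4.70) and Mmp27, passed the filter in Lung alone and had to be. Of the AP-1, Runx and Ets factors 9 of 12 were lower and none higher, including Runx1 (3389 to 2.96) and Runx2 (744 to 5.07). Runx1, Runx2 and Etv4, like Tnf, Traf1 and Rel among the partners, passed the filter in Lung alone. In the dynein-2 list Ift122 was the 1 higher gene of 14 and 3 were lower, Dync2i1 (665 to 119), Dync2li1 and Ift88, and none of the 17 neddylation genes was called. The medians were -1.91, -5.09, -2.49, -0.42 and 0.34, against -0.12 over all genes.

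The third comparison asked what the SCLC allografts held relative to lung. In 57SCLC_allo, 4 metalloproteinases were higher and Birc3 was lower. All 10 genes were tested, 4 were called higher and 1 lower, and 18.9% and 26.9% of all 18517 genes were. Mmp13 rose 63.8-fold, from 32.7 ± 9.51 to 2088 ± 479 normalized counts (log2 fold change 5.96, standard error 0.25, adjusted p = 4.88e-07). Mmp12 rose 32.6-fold to 4406 ± 1326 (4.99, 0.25, adjusted p = 9.64e-07) and Mmp3 7.26-fold to 348 ± 122 (2.82, 0.32, adjusted p = 9.74e-05). Mmp10, which passed the filter in 57SCLC_allo alone, was at least 25.7-fold higher.

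Birc3 fell 5.26-fold, to 378 ± 110.4 normalized counts (log2 fold change -2.43, standard error 0.21, adjusted p = 2.01e-05). Mmp8 did not pass the test, with 106 ± 39.9 in 57SCLC_allo and 80.1 ± 18.3 in Lung (0.36, 0.33, adjusted p = 0.350). Dync2h1 was 1.33-fold higher (0.41, 0.10, adjusted p = 0.00536) and Tmem123 1.33-fold lower (-0.41, 0.08, adjusted p = 0.00222), both under the fold threshold. Birc2 (-0.07, 0.06, adjusted p = 0.349) and Dcun1d5 (0.03, 0.10, adjusted p = 0.823) differed little, and the sign of each depended on the scaling, the test or the samples used.

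The macrophage list summed to between 18743 and 33767 normalized counts in 57SCLC_allo and to between 89774 and 119592 in Lung, and the fibroblast list to between 43390 and 66884 against 31594 to 36903. The part of these cells in the metalloproteinase levels was not tested. Of the cIAP and TNF receptor partners 1 of 21 was higher and 13 were lower, of the inhibitors and regulators 2 of 9 higher and 4 lower (Mmp14 rose from 2054 to 6833, Timp2 fell from 26063 to 6691), and of the AP-1, Runx and Ets factors 2 of 12 higher and 8 lower (Etv4 rose from 23.1 to 163, Ets1 fell from 15272 to 2670.0). In the dynein-2 list 1 of 14 was higher (Kif17) and 3 were lower, and in neddylation none of 17 was called. The medians were -1.30, 0.00, -1.42, -0.25 and 0.07, against -0.09 over all genes.

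**Figure D4:**
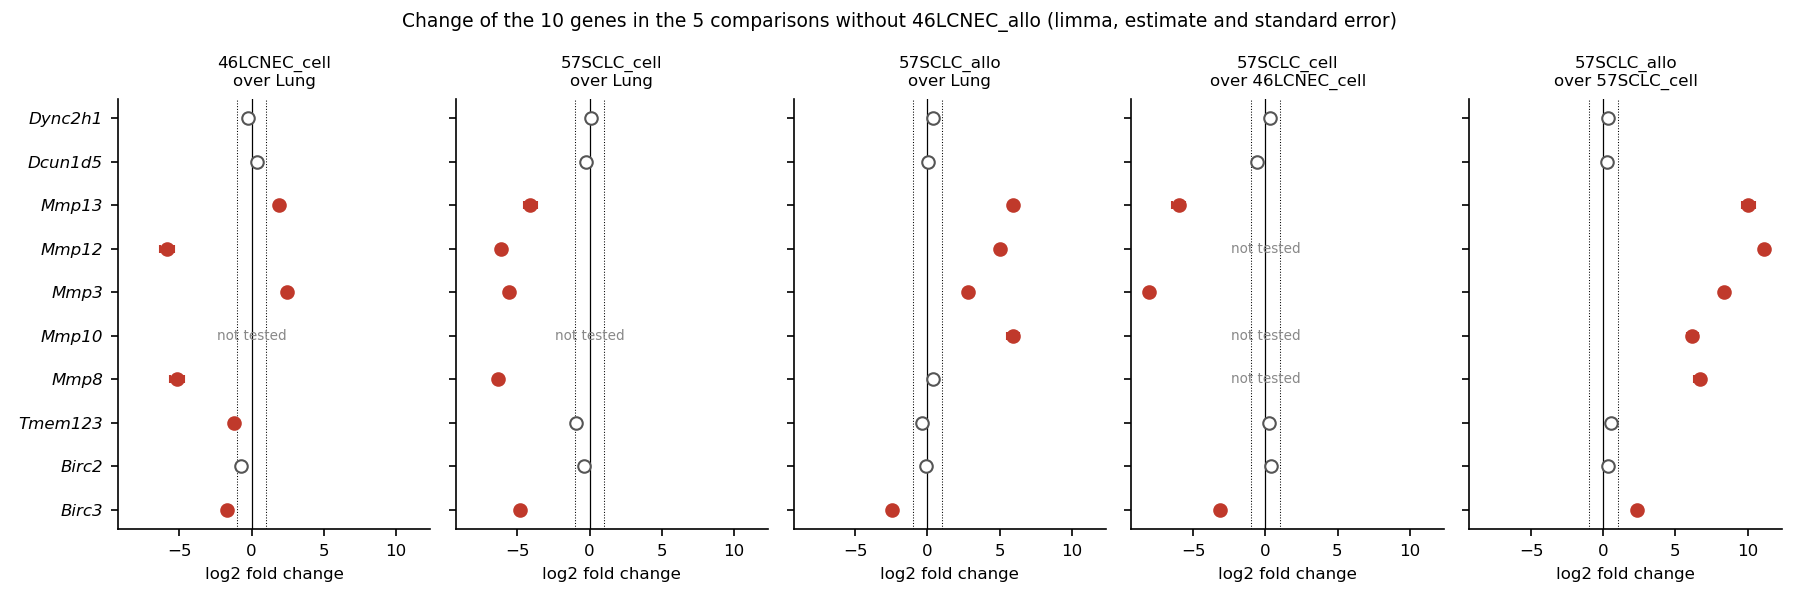
Log2 fold change with its standard error (limma, n = 3 per group) of the 10 genes in the 5 comparisons without 46LCNEC_allo, filled red where called and open where not, with dotted lines at -1 and 1. The metalloproteinases and Birc3 carry all calls but that of Tmem123 in 46LCNEC_cell over Lung, and the largest change is that of Mmp12, 11.13, in 57SCLC_allo over 57SCLC_cell.

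The fourth comparison set the lines against each other in culture, where no cells of a graft recipient are present. In 57SCLC_cell, Birc3, Mmp13 and Mmp3 were lower than in 46LCNEC_cell. Mmp12, Mmp10 and Mmp8 were too low to be tested, and of the other 7 genes 3 were called lower and none higher, against 22.2% and 23.9% of all 16920 genes. Birc3 fell 8.48-fold (log2 fold change -3.12, standard error 0.24, adjusted p = 6.71e-06). Mmp13 was lower by a ratio of 112 (51.2 to 308, from 6 reads in the flasks) and Mmp3 was at least 160.3-fold lower, and both passed the filter in 46LCNEC_cell alone.

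The 4 genes Birc2, Tmem123, Dync2h1 and Dcun1d5 differed between the lines by 1.214 to 1.47-fold. Birc2 was 1.28-fold higher in 57SCLC_cell (log2 fold change 0.36, standard error 0.08, adjusted p = 0.00338), Tmem123 1.214-fold higher (0.28, 0.08, adjusted p = 0.0097) and Dcun1d5 1.47-fold lower (-0.56, 0.08, adjusted p = 0.000243), while the ranges of Dync2h1 overlapped (0.30, 0.14, adjusted p = 0.0892). The calls were the same without flask C.

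Of the partners, 12 of 20 cIAP and TNF receptor genes were lower in 57SCLC_cell and none higher, including Tnfrsf1b, a receptor of TNF (3728 to 285 normalized counts), and Tnfaip3, an inhibitor of NF-kB (1056 to 83.2). The 8 tested metalloproteinase inhibitors and regulators were called lower, among them Mmp14 (14612 to 3.55), Plaur and Plau, and so were 9 of 12 AP-1, Runx and Ets factors, with Runx2 (6086 to 5.07), Etv4 (4038 to 4.96) and Fosl1 (1768 to 17.2) named for size and 3 factors higher. Traf1, Rel, Mmp14, Mmp9, Runx1, Runx2 and Etv4 passed the filter in 46LCNEC_cell alone and had to be lower. The dynein-2 list had 2 of 14 higher and 1 lower, and neddylation 1 of 17 in each direction, Dcun1d2 and Cul4b. The medians were -1.60, -3.13, -1.40, -0.05 and -0.17, against 0.00 over all genes.

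The last comparison asked what changed when the SCLC line grew as an allograft. In 57SCLC_allo, Birc3 and all 5 metalloproteinases were higher than in the flasks. All 10 genes were tested, 6 were called higher and none lower, against 14.4% and 2.29% of all 17078 genes. The 5 metalloproteinases passed the filter in the tumors alone and so had to differ. Mmp12 was at least 2639-fold higher (log2 fold change 11.13, standard error 0.27, adjusted p = 1.62e-07), Mmp3 at least 209-fold, Mmp8 at least 63.6-fold and Mmp10 at least 44.9-fold. For Mmp13 the ratio was 1853 (850.4 to 5051, from 6 reads in the flasks; log2 fold change 10.06, standard error 0.43, adjusted p = 9.97e-07).

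Birc3 rose 5.18-fold, from 73.0 ± 25.2 to 378 ± 110.4 normalized counts (log2 fold change 2.37, standard error 0.30, adjusted p = 0.000416). Tmem123 was 1.45-fold higher (0.54, 0.08, adjusted p = 0.0012) and Birc2 1.25-fold (0.32, 0.08, adjusted p = 0.0135), under the fold threshold. Dync2h1 (1.25-fold, adjusted p = 0.0802) and Dcun1d5 (1.18-fold, adjusted p = 0.0904) did not pass the p threshold either. The calls were the same without flask C.

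Markers of host cells rose beside the metalloproteinases. The macrophage list went from between 391 and 416 normalized counts in the flasks, with 4 of its 10 genes at or under 3 reads, to between 18743 and 33767 in the tumors, with 1 of 10. That 1 gene was Itgam, which was at 0 in all 15 samples. The fibroblast list went from between 40.4 and 44.3 to between 43390 and 66884, and the neutrophil list from at most 1.56 to between 62.3 and 438. Their part in the metalloproteinase and Birc3 levels was not tested.

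Calls in the partner lists were mostly higher where there were any, as were 86.2% of all calls in this comparison. Of the cIAP and TNF receptor partners 7 of 21 were higher in 57SCLC_allo and none lower, among them Traf1 (2.59 to 96.9 normalized counts), Tnf (1.81 to 45.7) and Tnfaip3 (83.2 to 472). Of 9 metalloproteinase inhibitors and regulators 8 were higher and none lower, with Mmp14 (3.55 to 6833) and Mmp9 (4.70 to 387), and of 12 AP-1, Runx and Ets factors 6 were higher and 1 lower, with Runx1 (2.96 to 1156) and Fos (72.9 to 564). In each of these 3 lists 3 genes passed the filter in the tumors alone and had to be higher: Traf1, Tnf and Rel, then Mmp14, Mmp9 and Mmp27, then Runx1, Runx2 and Etv4. No gene of the dynein-2 or neddylation lists was called. The medians were 0.53, 3.78, 1.58, 0.07 and -0.12, against 0.00 over all genes.

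The comparisons with 46LCNEC_allo contain the values that chose the genes and are given as values only. The mean of this group was 4404 ± 5359 normalized counts for Birc2, 4725 ± 5415 for Birc3, 17686 ± 26794 for Mmp13 and 15027 ± 18941 for Tmem123 (SD, n = 3), so that the SD exceeded the mean in each. With tumors 319 and 321 alone, the means were 1311 for Birc2, 1601 for Birc3, 2223 for Mmp13 and 4093 for Tmem123, of which Birc2, Birc3 and Tmem123 were below their Lung means of 1773, 1989 and 6637. Mmp3 stood apart from this, since tumors 319 and 321 had a mean of 4264, against 348 ± 122 in 57SCLC_allo and 48.0 ± 15.03 in Lung. Mmp12 was the reverse, with 174 ± 55.4 in 46LCNEC_allo and 4406 ± 1326 in 57SCLC_allo.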

How the data were processed

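Poly-A selected, paired-end RNA sequencing was measured in 15 samples in 5 groups of 3. Per the labels and the paper's methods, the authors aligned reads to GRCm39 with Rbowtie2, counted them with featureCounts on GENCODE mouse release 27 and divided them by DESeq2 size factors before the signal values (normalized counts) were deposited. Every non-zero value was a whole multiple of 1 step per sample, within 0.1 of a read, which gave back the reads.

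Comparisons used limma 3.58.1 (R 4.3.3) with a mean-variance trend on log2(normalized count + 1) over the 6 samples compared. edgeR 4.0.16 and DESeq2 1.42.0 on the recovered reads were alternatives. In data simulated for 57SCLC_allo over 57SCLC_cell with 200 genes changed 4-fold, limma recovered 100% with 1 other call among 17648 genes. The simulation gave all genes the same dispersion, set in advance and not estimated from the data, and changed only genes above a minimum mean. It therefore does not cover low genes, the spread between the real samples or the distance of flask C from the other flasks. Ratios of tumor 312 used the higher of tumors 319 and 321, and bounds a floor of 3 reads, which covers counting error only, as do the exact 95% intervals. Coordinates came from GENCODE (98.9% of identifiers matched) and upstream sequence from RefSeq. Python 3.11.15, numpy 2.4.6, pandas 2.3.3, scipy 1.17.1 and matplotlib 3.10.9 were used.

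The 10 genes and all lists were chosen with earlier results of these data known. Named besides them are all genes of the interval, 3 measured neighbors on each side, the 3 longest runs, the largest ratios outside chromosome 9 (10 genes), the 3 most alike genes for Birc2, Tmem123, Mmp13 and Mmp12, and up to 4 called genes per list. Genes named in the blocks along chromosome 9 were picked after their values were seen. Columns of other samples were absent. Some items that these rules name are not reported here.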

Additional observations from a re-analysis of the deposited data

How the results depend on the processing

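The count of 8 genes at least 2-fold higher in tumor 312 was the same with scaling by library total, upper quartile or TMM, with 1 added, and with a 1.5-fold or 3-fold rule, and the named 8 were the same. Scaling by library total moved the median ratio of all genes from 0.90 to 0.84 and the share past 2-fold from 2.85% to 2.42%. The numbers of the 10 genes called were 6, 5, 5, 3 and 6 in the 5 comparisons in the order given, and stayed so with edgeR, DESeq2, pseudocounts of 0.1 and 5, an adjusted p of at most 0.05, scaling by library total and each sample left out in turn (a filter of 2 samples was used there, chosen after seeing the data). Of these calls, 2, 4, 1, 2 and 5 were of genes that passed the filter in 1 group alone. Such genes had to differ, so their unchanged calls say little. Among all genes tested, 10087 of 18142, 9933 of 18467, 8481 of 18517, 7799 of 16920 and 2842 of 17078 were called. Without a filter on low values Mmp10 was added, which gave 7 in 46LCNEC_cell over Lung and 4 in 57SCLC_cell over 46LCNEC_cell. With all 15 samples in 1 model, in which the spread of each gene includes tumor 312, the count in 46LCNEC_cell over Lung was 3. Scaling by library total raised the median log2 fold change of all genes by 0.24, 0.21 and 0.24 in 57SCLC_cell over Lung, 57SCLC_allo over Lung and 57SCLC_cell over 46LCNEC_cell. Signs turned only for genes that were not called: Dcun1d5 in 57SCLC_cell over Lung (0.018 with scaling by library total), Dync2h1 in the same comparison (-0.065 without flask C, the lowest, and 0.18 without flask B, the highest with 1 sample left out), Birc2 in 57SCLC_allo over Lung (0.0072 with edgeR, 0.14 with scaling by library total) and Dcun1d5 in 57SCLC_allo over Lung (-0.029 without tumor 275, -0.027 without Lung CT5 and up to 0.11 without tumor 316). The letters A, B and C do not pair the dishes and flasks in any source, and deviations of same-lettered samples correlated at 0.09, -0.08 and -0.01. With the replicate letter as a block, 3 of the 10 genes were called, as without it.

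Tumor 312 is 1 library, so its levels have no replicate. Low values limit Mmp10, Mmp12 and Mmp8: 3 reads correspond to between 1.56 and 7.18 normalized counts across the samples, and tumor 275, with 9480244 reads, has the highest floor. The groups hold 3 samples each.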

Other observations

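Outside chromosome 9, the genes with the largest ratio of tumor 312 to the higher of tumors 319 and 321, among genes that reached 50 normalized counts in each, were led by the basal keratin Krt14 (1075 against 72.6 and 50.9, a ratio of 14.8). It was followed by Ndufa4l2 (2644 against 380.0 and 296), Sncg (1238 against 187 and 134) and the laminin chain Lama1 (538 against 88.4 and 59.7), with ratios of 6.96, 6.61 and 6.08. Trp63, Gm7019, the fat cell gene Fabp4, Zan and Akr1c14 had ratios between 4.82 and 5.99. Each of these genes lies on a different chromosome, and each ratio was below those of Cep126, Cfap300 and Mmp13.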
